A study of Mus musculus with 2 samples.

Results

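The genes described here encode 9 chemokines that melanoma cells can make and 1 chemokine-scavenging receptor: Ccl2, Ccl5, Ccl7, Cxcl1, Cxcl2, Cxcl10, Cxcl12, Cxcl16, Cx3cl1 and Ackr3. They were looked up by symbol among the 23284 genes listed for each library. Under its current symbol each of 9 was found, and Ackr3 was found as Cxcr7, an older symbol that RefSeq gives to that gene alone. RNA was sequenced from 2 cultured mouse melanoma lines of C57BL/6 origin, B16/BL6, a subline with invasive behaviour, and its parent B16, in a search for genes related to metastasis. B16/BL6 cells were kept in RPMI and B16 cells in DMEM, both with fetal bovine serum and penicillin/streptomycin, so line and medium cannot be told apart. Each line gave 1 library. No value therefore has a replicate error, no difference was tested, and the labels give neither passage number nor clonality.

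Chemokines are small secreted or membrane-bound proteins that steer leukocytes along gradients through G protein-coupled receptors. Their names follow the spacing of the first cysteines (CC, CXC, CX3C), and CXC chemokines such as Cxcl1 and Cxcl2 draw neutrophils, while Ccl5 and Cxcl10 draw T cells and natural killer cells. Many chemokine genes are switched on by NF-kB, which binds kappaB sites in their promoters, and some, Cxcl10 above all, by interferon. In melanoma, chemokines made by the tumour cells shape which immune cells enter the lesion.

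The promoters of Cxcl1, Cxcl2 and Cxcl10 are shown because the first pair of genes lay more than 2-fold apart between the lines and the last one stood at nearly the same level in both. Of the 10 genes, 6 had an entry in the RefSeq promoter table (GRCm38.p6, the assembly behind mm10). Each line below gives the 250 bases before the annotated start, 5′ to 3′ on the gene's own strand. Capitals mark matches, on either strand, to the kappaB-type letters GGGNNTTTC, to the interferon-response-type letters GAAANNGAA and to the AP-1-type letters TGANTCA, none of which overlap one another. A further search, for TATAAA, gave no match in these 3.
Cxcl1, chr5:90890995-90891244, plus strand: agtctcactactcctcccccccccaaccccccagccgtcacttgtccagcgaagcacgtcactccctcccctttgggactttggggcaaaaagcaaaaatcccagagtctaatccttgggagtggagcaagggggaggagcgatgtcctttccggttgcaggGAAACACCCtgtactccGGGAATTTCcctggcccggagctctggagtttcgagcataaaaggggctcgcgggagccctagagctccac
Cxcl2, chr5:90903649-90903898, plus strand: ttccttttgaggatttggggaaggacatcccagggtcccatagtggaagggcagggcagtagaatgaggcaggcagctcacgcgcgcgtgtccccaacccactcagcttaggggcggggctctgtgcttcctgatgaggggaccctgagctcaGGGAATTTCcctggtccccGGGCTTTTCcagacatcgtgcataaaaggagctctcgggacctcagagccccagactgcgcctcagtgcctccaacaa
Cxcl10, chr5:92348890-92349139, minus strand: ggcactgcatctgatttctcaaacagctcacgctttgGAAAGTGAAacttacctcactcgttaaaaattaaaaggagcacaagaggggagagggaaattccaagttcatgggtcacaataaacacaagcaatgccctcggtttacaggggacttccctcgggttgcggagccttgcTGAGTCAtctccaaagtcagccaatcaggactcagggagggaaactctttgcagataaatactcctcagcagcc

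The Cxcl1 window held GGGNNTTTC at 71 to 63 bases before the start, read as GGGAATTTC, and once more on the opposite strand at 88 to 80 bases. The Cxcl2 window held it at 97 to 89 bases, with the same letters GGGAATTTC, and at 78 to 70 bases, read as GGGCTTTTC. The longest run that the Cxcl1 and Cxcl2 windows shared was GGGAATTTCCCTGG, 14 bases long, which takes in the GGGAATTTC of both. Among 27025 promoter windows of the same length, 1 per gene, 3.79% held GGGNNTTTC. Looser forms of these kappaB-type letters were not searched. The Cxcl10 window had no match to GGGNNTTTC, but it held gggaaattc and ggggacttc, each 1 letter away from it. It held GAAAGTGAA at 213 to 205 bases, a match to GAAANNGAA, which 7.16% of the promoters hold, and TGAGTCA at 74 to 68 bases, a match to TGANTCA, which 6.87% hold. Cxcl12, Cx3cl1 and Ackr3, the others with an entry, had no match to any of these 3 motifs, and Cx3cl1 and Ackr3 held TATAAA, which 13% of the promoters hold. A match describes the letters and does not show binding, and a missing match says only that these letters are not in the window. Since looser kappaB-type letters were not searched, no contrast in kappaB sites between Cxcl10 and the Cxcl1 and Cxcl2 pair is read from this.

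Expression is given in FPKM, fragments per kilobase of transcript scaled to library size, which allows levels of different genes to be set side by side. Of the 10 genes, 6 reached 1 FPKM in at least 1 library, and the other 4 stayed under it in both. Of these 6, Ccl5, Cxcl1 and Cxcl2 were lower in B16/BL6 by 2-fold or more, Ackr3 was higher by 2-fold or more, and Cxcl10 and Cx3cl1 lay within 2-fold. Fold limits were applied to log2(FPKM + 1), which understates the change of low genes. Over all 10709 genes that reached 1 FPKM in either library, called expressed genes below, 3.16% were lower and 3.31% higher by the same limit, 6.46% in either direction. Cxcl2 counted as expressed through its B16 value alone, so it could only be called lower, and it enters the median below on the same terms. The genes were chosen with earlier results of these data known, so the counts and the median are descriptions and no test. The median difference of the 6 genes was -0.96 on the log2(FPKM + 1) scale, against 0.01 over all expressed genes. It moved to -2.08 with 0.1 added in place of 1, to -0.32 with 5 added, to -1.53 for the 4 genes that reached 5 FPKM, and to -0.01 over all 10 genes.

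**Figure D1:**
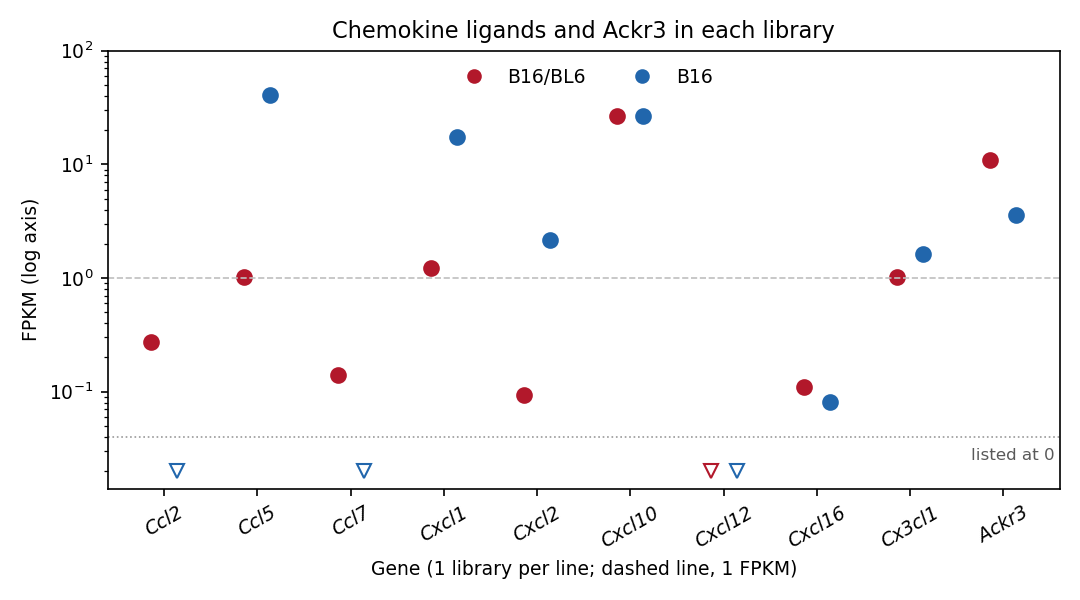
FPKM of each gene (log axis) in the B16/BL6 library (red) and the B16 library (blue), 1 point per library, with open triangles for values listed at 0 and a dashed line at 1 FPKM. Ccl5, Cxcl1 and Cxcl2 sit far lower in B16/BL6, the Cxcl10 points lie side by side near 26 FPKM, and Ackr3 is higher in B16/BL6.

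Among the CC chemokines, Ccl5 differed most. Ccl5 (RANTES, gene 20304, chromosome 11, 83525778 to 83530518 in GRCm38) recruits T cells, natural killer cells and monocytes. It stood at 1.02 FPKM in B16/BL6, against 40.4 FPKM in B16, which is 39.7-fold lower in B16/BL6 and a log2(FPKM + 1) difference of -4.36. Of the 10709 expressed genes, 13 had a lower difference. In B16 it was the most abundant of the 10 genes, above 77.7% of the expressed genes. The B16/BL6 value rests on few fragments, about 6 by an approximate reading of the depth, against about 216 in B16. In whole cultures, fewer cells with the transcript and less of it per cell cannot be told apart.

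The monocyte attractants Ccl2 (MCP-1) and Ccl7 (MCP-3), which lie close together on chromosome 11, were barely detected. Ccl2 was at 0.275 FPKM in B16/BL6 and listed at 0 in B16. Ccl7 was at 0.139 FPKM in B16/BL6 and listed at 0 in B16. By the approximate depth these values stand for about 2 fragments and 1 fragment, so no direction is read from them. A listed 0 can also be a failed estimate, since the ribosomal protein gene Rpl26 was listed at 0 in both libraries. A low value above 0 may be one too, since the ribosomal protein gene Rpl11 was at 0.213 FPKM in B16/BL6 and listed at 0 in B16.

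The neutrophil attractants Cxcl1 and Cxcl2 were both lower in B16/BL6. Cxcl1 (KC, gene 14825, chromosome 5, 90891245 to 90893121) was at 1.22 FPKM in B16/BL6, against 17.4 FPKM in B16, 14.2-fold lower in B16/BL6 with a log2(FPKM + 1) difference of -3.05. Cxcl2 (MIP-2, gene 20310, chromosome 5, 90903899 to 90905938) was at 0.0938 FPKM in B16/BL6, against 2.17 FPKM in B16, 23.2-fold lower in B16/BL6. Its log2(FPKM + 1) difference, -1.54, is the smaller of the pair because the added 1 outweighs its low level, and with 5 added it was -0.49, within 2-fold. The start of Cxcl2 is 10.8 kb beyond the end of Cxcl1. No other gene within 500 kb of either reached 1 FPKM in a library.

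The ratio of sequenced fragments behind some of these values could be read from the files, since the lowest FPKM values come in steps of 1 fragment. Equal fragment numbers corresponded to a B16/BL6 to B16 ratio of 0.906, found in 153 of 379 genes under 0.1 FPKM in both libraries. Against that step, the smallest whole numbers that fitted within 0.01% were 1 fragment in B16/BL6 to 36 in B16 for Ccl5, and 1 to 21 for Cxcl2. For Cxcl1, where large numbers can fit almost any ratio this closely, the nearest fit was 11 to 142. The true fragment numbers may be multiples of these. The Cxcl2 value in B16/BL6 can thus rest on as little as 1 fragment, and its fold is the least certain of the lower genes.

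Cxcl10, in contrast, had nearly the same level in both lines. Cxcl10 (IP-10, gene 15945, chromosome 5, 92346638 to 92348889), an interferon-inducible attractant of T cells that carry Cxcr3, was at 26.5 FPKM in B16/BL6 and 26.7 FPKM in B16. Its log2(FPKM + 1) difference was -0.01, and it stood above 66.7% of the expressed genes in B16/BL6 and 67.2% in B16. The gene overlaps Art3, an ADP-ribosyltransferase family gene at 4.85 FPKM in B16/BL6 and 10.2 FPKM in B16. No source used here says whether strand was used to divide reads between them.

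**Figure D2:**
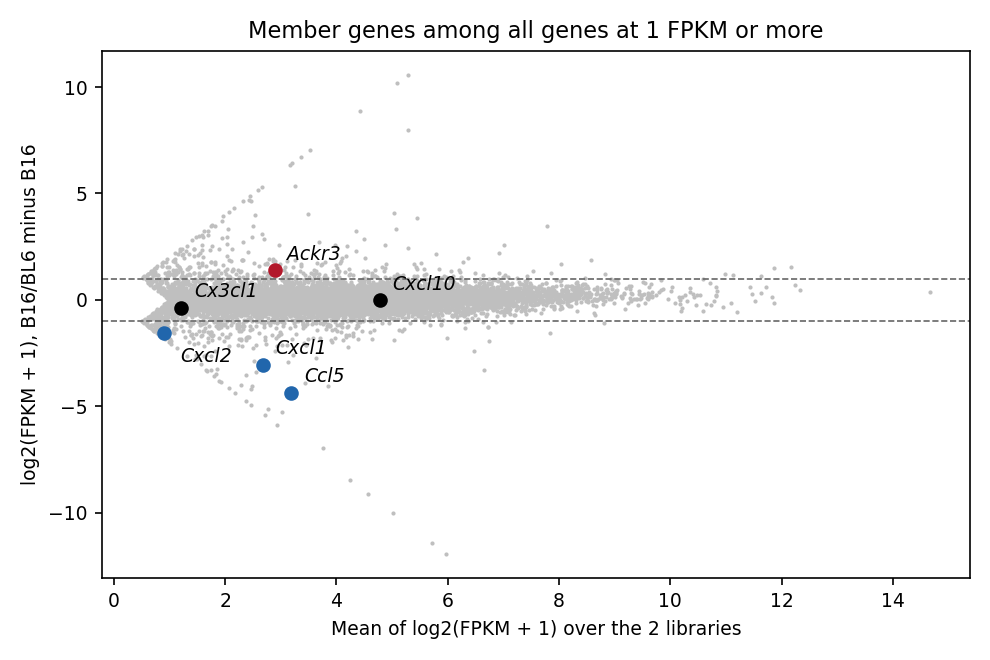
Each point is 1 of the 10709 expressed genes, by its mean log2(FPKM + 1) over the 2 libraries (x axis) and its difference, B16/BL6 minus B16 (y axis), with dashed lines at 2-fold. Ccl5 at -4.36 and Cxcl1 at -3.05 lie below the bulk of genes of like mean level, Cxcl2 lies in the low range, and Ackr3 at 1.39 lies above the upper line.

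Cxcl12 (SDF-1), the homeostatic ligand of Cxcr4 and Ackr3, was listed at 0 in both lines. The ligands that are made as transmembrane proteins and released by shedding were low. Cxcl16, the ligand of Cxcr6, was at 0.110 FPKM in B16/BL6 and 0.0809 FPKM in B16, a ratio of 3 fragments to 2. Cx3cl1 (fractalkine, chromosome 8, 94772180 to 94782427), the ligand of Cx3cr1, was at 1.03 FPKM in B16/BL6 and 1.64 FPKM in B16, with a log2(FPKM + 1) difference of -0.37. Of the 14 expressed genes within 500 kb of Cx3cl1, 0 passed 2-fold, and their median difference was -0.33. Most of them stood well above Cx3cl1, so the added 1 shrinks the Cx3cl1 difference more than theirs. With 0.1 added in place of 1, Cx3cl1 had -0.61.

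Summed over the 9 ligand genes, transcript levels came to 30.4 FPKM in B16/BL6 and 88.3 FPKM in B16. Cxcl10 made up 87.2% of the sum in B16/BL6 and 30.2% in B16. Ccl5 made up 3.35% of it in B16/BL6 and 45.7% in B16, and Cxcl1 made up 4.01% in B16/BL6 and 19.6% in B16. Without Ccl5 and Cxcl1 the sums were 28.2 FPKM in B16/BL6 and 30.6 FPKM in B16. In B16/BL6 the ligand transcripts were thus mostly those of Cxcl10, and in B16 they were spread over Ccl5, Cxcl10 and Cxcl1.

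**Figure D3:**
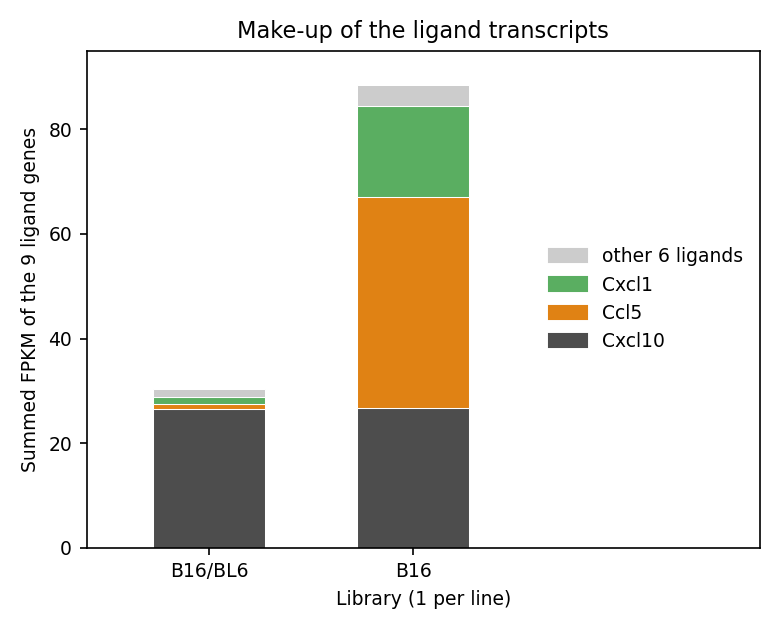
Stacked bars of summed FPKM over the 9 ligand genes in the B16/BL6 library (left, 30.4 FPKM) and the B16 library (right, 88.3 FPKM), divided into Cxcl10, Ccl5, Cxcl1 and the other 6 ligands. The Cxcl10 segments are of like height, and the Ccl5 and Cxcl1 segments are large in B16 alone.

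Ackr3, the atypical receptor that binds and internalises Cxcl12 without classical G protein signalling, was the one gene of the 10 to be higher in B16/BL6 by 2-fold or more. Ackr3 (gene 12778, chromosome 1, 90203980 to 90215724) was at 11.0 FPKM in B16/BL6 and 3.59 FPKM in B16, a ratio of 3.07 and a log2(FPKM + 1) difference of 1.39, which was 0.90 with 5 added. Of the 10709 expressed genes, 175 had a higher difference. The 3 expressed genes within 500 kb of it (Agap1, Gbx2 and Cops8) had differences of 0.07 to 0.11. Its other receptor partner for Cxcl12, Cxcr4, was at 0.102 FPKM in B16/BL6 and listed at 0 in B16.

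The receptors through which the ligands act on leukocytes had low or zero values, and a listed 0 does not show absence. Of 22 other chemokine receptor genes, 1 reached 1 FPKM, Ccr10, at 0.866 FPKM in B16/BL6 and 1.13 FPKM in B16, and 12 were listed at 0 in both lines. Cxcr2, the receptor of Cxcl1 and Cxcl2, was listed at 0 in both, as were Cxcr6 and Cx3cr1. Cxcr3, the receptor of Cxcl10, was at 0.703 FPKM in B16/BL6 and 0.129 FPKM in B16. Among these receptor genes and Ackr3, Ackr3 had the highest level in both lines.

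The other ligand genes of the family were looked up in the same way. Of 29 other chemokine ligand genes, 2 reached 1 FPKM and 17 were listed at 0 in both lines. Ccl25, a thymic and gut chemokine, was at 4.30 FPKM in B16/BL6 and 5.18 FPKM in B16. Ccl27a, known from skin, was at 2.91 FPKM in B16/BL6 and 2.90 FPKM in B16, with the reservation that near-identical copies of this gene exist. Ccl20, an attractant of cells with Ccr6, was listed at 0 in B16/BL6 and at 0.920 FPKM in B16, just under the limit. The Cxcl1 relative Cxcl3 was listed at 0 in both lines.

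NF-kB drives many chemokine genes, and its regulators include inhibitors as well as activators. Of 16 subunits and regulators, 13 were expressed, of which 0 were higher and 1 was lower in B16/BL6 by 2-fold or more, with a median difference of -0.08. Over all expressed genes 6.46% passed 2-fold, so 1 of 13 is near the background. The lower gene was Nfkbiz, at 1.22 FPKM in B16/BL6 and 5.65 FPKM in B16 (log2(FPKM + 1) difference -1.58). It encodes IκBζ, a nuclear IκB protein that is itself induced by NF-kB and serves as its cofactor on selected genes. The subunit gene Nfkb1 was at 31.7 FPKM in B16/BL6 and 18.8 FPKM in B16, and Rela, its usual partner, was at 29.8 FPKM in B16/BL6 and 40.6 FPKM in B16. Nfkbia, the inhibitor IκBα and a rapid NF-kB target, was at 13.3 FPKM in B16/BL6 and 19.1 FPKM in B16. The genes named so far have the largest differences in the list. Relb was at 10.8 FPKM in B16/BL6 and 11.1 FPKM in B16. Nfkb2 was at 24.8 FPKM in B16/BL6 and 25.2 FPKM in B16. Whether NF-kB activity differed between the lines was not tested.

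**Figure D4:**
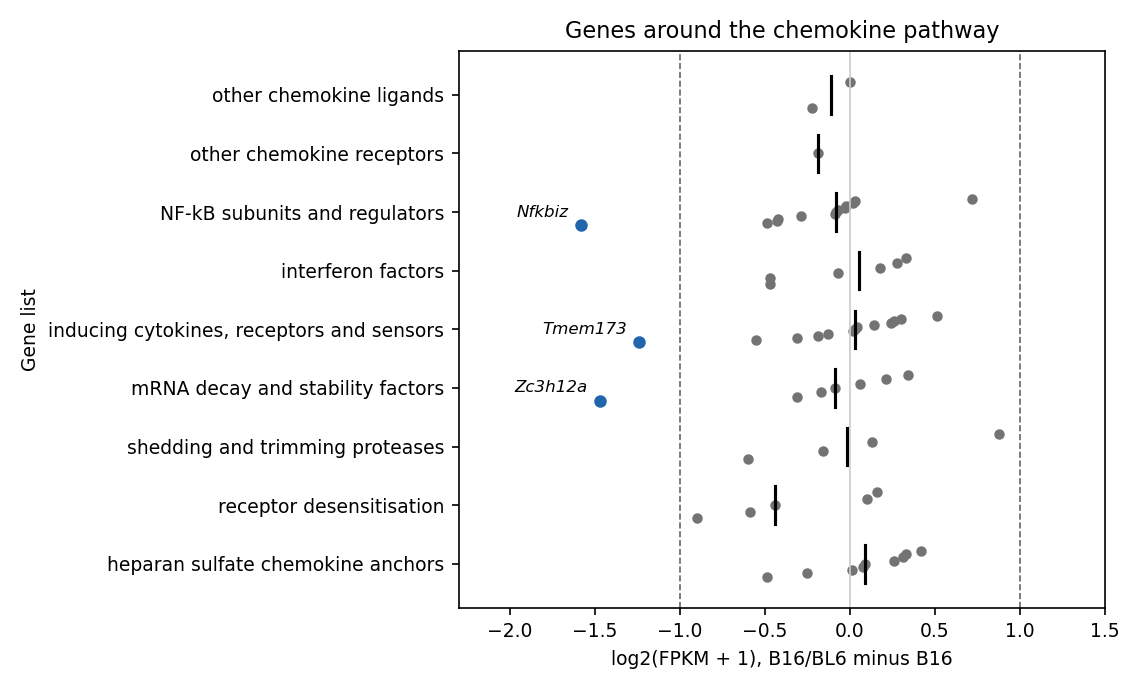
Difference in log2(FPKM + 1), B16/BL6 minus B16 (x axis), of each expressed gene in 9 lists of pathway genes (y axis), with black bars at each list's median and dashed lines at 2-fold. Nfkbiz, Tmem173 and Zc3h12a are the 3 genes past 2-fold, and each is lower in B16/BL6.

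Of 7 genes for factors that control the decay of short-lived mRNAs such as those of chemokines, all 7 were expressed, and 1 was lower and 0 were higher in B16/BL6 by 2-fold or more, beside 3.16% lower and 3.31% higher over all expressed genes. That gene, Zc3h12a (Regnase-1, an endoribonuclease that cuts inflammatory transcripts and is itself induced by inflammatory signals), was at 0.822 FPKM in B16/BL6 and 4.05 FPKM in B16. Its log2(FPKM + 1) difference was -1.47, and since it reached 1 FPKM through its B16 value alone, it could only be called lower. With 5 added in place of 1, neither Zc3h12a nor Nfkbiz passed 2-fold. Zfp36 (tristetraprolin, which binds AU-rich elements) was at 4.64 FPKM in B16/BL6 and 5.35 FPKM in B16.

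Of 23 inducing cytokines, their receptors and innate sensors, 13 were expressed, of which 1 was lower and 0 were higher in B16/BL6 by 2-fold or more, near the 6.46% of all expressed genes that passed 2-fold in either direction. The lower gene was Tmem173 (STING, the adaptor of cytosolic DNA sensing), at 12.7 FPKM in B16/BL6 and 31.3 FPKM in B16. Of the 13 expressed genes, 5 had a difference below 0. The sensor gene Ddx58 was at 0.728 FPKM in B16/BL6 and 1.53 FPKM in B16. Ifih1, under 1 FPKM in both lines, was at 0.0795 FPKM in B16/BL6 and 0.801 FPKM in B16. Ifngr1 was at 11.7 FPKM in B16/BL6 and 7.95 FPKM in B16. The TNF receptor gene Tnfrsf1a was at 93.4 FPKM in B16/BL6 and 77.8 FPKM in B16, and Tlr4 at 9.77 FPKM in B16/BL6 and 9.48 FPKM in B16. The inducing ligands were near 0 in both lines. Tnf was listed at 0 in B16/BL6 and at 0.0642 FPKM in B16, and Il6, Ifng and Ifnb1 were listed at 0 in both.

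Of 8 interferon-pathway transcription factor genes, 6 reached 1 FPKM and 0 passed 2-fold, with a median difference of 0.06. When each library is rescaled to the same sum, 7 reach the minimum and their median is -0.23, where that of all genes is -0.16. Irf1, an activator of Cxcl10 and Ccl5, was at 8.55 FPKM in B16/BL6 and 12.2 FPKM in B16. Irf9 was at 1.35 FPKM in B16/BL6 and 2.26 FPKM in B16. Irf3 was at 21.6 FPKM in B16/BL6 and 17.0 FPKM in B16. Of the 6 genes, 3 had a difference below 0. Irf7, under 1 FPKM in both lines, was at 0.158 FPKM in B16/BL6 and 0.64 FPKM in B16.

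Genes whose products act on chemokines or their receptors were counted in 3 further lists. Of 4 expressed proteases, 5 genes of receptor desensitisation and 9 of heparan sulfate proteoglycans and their synthesis, 0 passed 2-fold, beside 6.46% over all expressed genes. Among the proteases, whose median difference was -0.01, Adam10, which sheds Cx3cl1 and Cxcl16, was at 51.1 FPKM in B16/BL6 and 77.7 FPKM in B16, and Adam17 at 28.0 FPKM in B16/BL6 and 25.4 FPKM in B16. Mmp14, a membrane metalloprotease that can trim chemokines, was at 226 FPKM in B16/BL6 and 123 FPKM in B16. The heparan sulfate genes, whose products hold chemokines at cell surfaces, had a median difference of 0.09, or -0.08 after that rescaling. The desensitisation genes had a median difference of -0.44, or -0.62 after the same rescaling, which gave the proteases -0.18 and all genes -0.16. Arrb1, one of the arrestins that bind activated chemokine receptors, was at 4.61 FPKM in B16/BL6 and 9.45 FPKM in B16 (log2(FPKM + 1) difference -0.90), and 1 gene of its list passed 2-fold with 0.1 added in place of 1.

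By pattern over the 2 libraries, the genes nearest to Ccl5 were Fam178b (1.80 FPKM in B16/BL6 and 41.0 FPKM in B16), Fkbp11 and Isyna1, at Euclidean distances of 0.473 to 0.810 on the log2(FPKM + 1) scale. Nearest to Cxcl1 were Plp2 (1.12 FPKM in B16/BL6 and 14.5 FPKM in B16), Abcg2 and Btbd6. Nearest to Cxcl2 were Stc1, Neurl3 and Ell2, and nearest to Ackr3 were Gprc5b, Rab11fip4 and Pgcp. With only 2 libraries, likeness means similar levels and nothing more. Around Ccl5 on chromosome 11, 10 expressed genes lay within 500 kb, with a median difference of -0.02 and differences from -0.48 to 1.01. The nearest of them, Taf15, was at 117 FPKM in B16/BL6 and 110 FPKM in B16 (difference 0.08).

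Markers were used to check the source of the transcripts. All 7 melanocyte-lineage markers were expressed, with summed levels of 18525 FPKM in B16/BL6 and 12082 FPKM in B16. Of these 7, 2 were higher and 0 were lower in B16/BL6 by 2-fold or more. Tyr was at 164 FPKM in B16/BL6 and 10.6 FPKM in B16 (log2(FPKM + 1) difference 3.83), and Pmel had a difference of 1.1. With each library rescaled to the same sum, 1 of the 7 was higher by 2-fold or more. Of 7 T and natural killer cell markers, 0 reached 1 FPKM, their sum was 0.0964 FPKM in B16/BL6 and 0 in B16, and Cd3e, Cd8a, Nkg7, Klrb1c and Prf1 were listed at 0 in both. Of 7 macrophage markers, 2 did (Cd68 and Lyz2), with sums of 6.32 FPKM in B16/BL6 and 6.59 FPKM in B16, while the leukocyte gene Ptprc was at 0.0814 FPKM in B16/BL6 and 0.0180 FPKM in B16. Of 4 neutrophil markers found, 2 did (S100a8 and S100a9), with sums of 5.43 FPKM in B16/BL6 and 2.83 FPKM in B16. Of 8 fibroblast markers, 2 did (Col1a2 and Pdgfrb), with sums of 13.5 FPKM in B16/BL6 and 1.00 FPKM in B16, and Dcn, Lum, Col3a1 and Thy1 were listed at 0 in both. Of 7 endothelial markers, 1 did (Eng), with sums of 167 FPKM in B16/BL6 and 126 FPKM in B16, and Cdh5, Kdr, Tek and Tie1 were listed at 0 in both. The neutrophil and fibroblast sums were higher in B16/BL6. Col1a2 was at 5.32 FPKM in B16/BL6 and 0.367 FPKM in B16, and Pdgfrb at 7.43 FPKM in B16/BL6 and 0.104 FPKM in B16. S100a8 was at 2.68 FPKM in B16/BL6 and 0.492 FPKM in B16. Each of them was higher by 2-fold or more, but reached 1 FPKM in B16/BL6 alone, so it could only be called higher. The part of these markers in the chemokine differences was not tested.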

How the data were processed

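RNA was sequenced from 1 library of B16/BL6 and 1 of B16, prepared with a stranded mRNA kit per the labels' protocols. The values are FPKM per the file headers, 1 per gene symbol. Per the submitters' processing notes, the mm10 build and the tools Cufflinks 2.2.1, TopHat2 2.0.13, SAMtools 0.1.19 and Bowtie2 2.2.3 were used. No source used here gives the annotation, the scaling or the treatment of strand and of reads with several matches.

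FPKM is no count, so no count test was run. Differences are log2(FPKM + 1) in B16/BL6 minus B16, for genes that reached 1 FPKM in either library, called at 2-fold. The member genes, gene lists and alternatives were chosen with earlier results of these data known. The rule for named genes took from each list up to 4 expressed genes with the largest differences, those at 5 FPKM or more, and defining markers near 0. For each member past 2-fold it took the 3 genes nearest by Euclidean distance. Receptors, ligands, inducers, Irf7 and Ifih1 under 1 FPKM, chromosomal neighbours, Art3, Rpl26 and Rpl11 were named after their values were seen. The kappaB and interferon motifs were shortened by 1 letter after the sequences were seen. The near matches in the Cxcl10 window were picked out from its printed sequence.

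Approximate depths, 11100000 fragments in B16/BL6 and 10000000 in B16, are medians over 75 and 80 genes under 0.2 FPKM with 1 annotated transcript over 1500 bases (GENCODE M21). Estimates from 8000000 to 14000000 were kept, a range set after they were seen. Full transcript lengths were used, so fragment numbers of short genes are upper readings. Python 3.11.15 and pandas 2.3.3 were used. A few genes of the lists are counted but not reported here by name.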

Additional observations from a re-analysis of the deposited data

How the results depend on the processing

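Pseudocounts of 0.1 and 5, no minimum, a minimum of 5 FPKM, the TPM scale (each library rescaled to the same sum) and upper-quartile scaling were tried. Of the 10 genes, the number at least 2-fold higher in B16/BL6 stayed at 1, except that it was 0 with a pseudocount of 5, where Ackr3 had a difference of 0.90. The number at least 2-fold lower stayed at 3, except that it was 2 with a pseudocount of 5, where Cxcl2 had -0.49, and with a minimum of 5 FPKM, which leaves Cxcl2 and Cx3cl1 out. Ccl5 ranged from -5.18 to -2.92 and Cxcl1 from -3.73 to -1.85. The median difference of -0.96 was -2.08 with a pseudocount of 0.1, -0.32 with one of 5 and -1.53 with a minimum of 5 FPKM. Without a minimum, which adds the 4 low genes, it was -0.01. On the TPM scale it was -1.39, and with upper-quartile scaling -0.98. The TPM scale moved the median of all genes to -0.16. It gave 369 genes higher and 583 lower of 11257 at the minimum, against 354 and 338 of 10709 as deposited. On it Cxcl10 had -0.18, and the lists of receptor desensitisation and of other ligands had 1 gene lower by 2-fold and that of inducers 2, against 0, 0 and 1. Nfkbiz and Zc3h12a were within 2-fold with a pseudocount of 5, which left 0 genes past 2-fold in their lists. With 1 library per line, no replicate could be left out, and no paired analysis was possible because no group has a second replicate. Depth limits Ccl2, Ccl7, Cxcl2, Cxcl12 and Cxcl16, at or near single fragments in at least 1 library.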
